A study of Mus musculus with 4 samples.

Results

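The genes described here encode the machinery that copies DNA in S phase. The 44 members were taken by gene name from a list of replication proteins, and each name matched 1 of the 50600 gene rows of the deposited table. RNA-seq was done on 4 libraries of OG2ES, a mouse embryonic stem (ES) cell line labelled as coming from the inner cell mass, grown in mES medium with 2i, a pair of kinase inhibitors that keeps such cells naive. The groups were 2 libraries of genotype WT and 2 of genotype Myh9 KO, with no other treatment. The labels do not say whether the replicates were separate cultures or how many clones the Myh9 KO cells represent. The p-values below therefore measure only the spread between these libraries, and differences between the lines and the loss of Myh9 cannot be told apart. In bulk RNA, fewer cells in S phase and less transcript per cell cannot be told apart either.

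Replication starts at origins bound by the origin recognition complex (ORC), on which CDC6 and CDT1 load the ring-shaped MCM helicase in G1. CDC45 and GINS then switch the helicase on, and polymerase alpha with primase lays primers. Polymerases epsilon and delta extend the leading and lagging strands with the sliding clamp PCNA, which the RFC complex loads. RPA coats the exposed single strand, FEN1 and LIG1 join the lagging-strand fragments, and ribonucleotide reductase supplies deoxynucleotides. Many of these genes are classic targets of E2F factors, which turn on transcription at the G1/S boundary, and ES cells, with their short G1, keep them highly expressed.

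The deposited values were whole numbers with nearly equal totals per library (992098 to 992317), a scaled unit without decimals, so read depth is unknown and differences of 1 or 2 units in genes with low values are at the limit of the scale. Fold changes are given as log2 fold changes of value + 1, Myh9 KO minus WT, with the standard error (SE) and n = 2 libraries per group throughout. Rises and falls are named only for called genes, those for which the Benjamini-Hochberg adjusted p was under 0.05 in a limma fit over all 11231 tested genes and also in the same fit with random decimals added to the whole numbers. The adjusted p printed is the larger of those from both fits. Myh9, the targeted gene, fell from 83 and 100 in WT to 9 and 9 in Myh9 KO, a log2 fold change of -3.20 (SE 0.12, adjusted p = 0.00675). All 8 ES cell markers were detected, with sums of 9518 and 9759 in WT against 8308 and 8110 in the knockout. These sums follow Dppa5a most, at 4755 and 4841 in WT against 3438 and 3205 in the knockout. Sox2 and Esrrb were also lower in both knockout libraries, Nanog, Zfp42 and Klf4 were higher, and Pou5f1 and Tdgf1 overlapped between groups. Of 10 feeder fibroblast markers 6 were listed at 0 throughout, and the summed value of this list was 207 and 207 in WT against 149 and 162 in the knockout. Most of that sum was Vim (153 and 151 in WT against 109 and 121 in the knockout) and Fstl1 (50 and 52 against 35 and 34). Thy1 and Pdgfrb did not exceed 5 in any library. Of 5 trophoblast and 5 endoderm markers, 3 each were listed at 0 in every library, with sums of 7 to 10 and 1 to 6. The part of these markers in the results below was not tested.

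Promoter sequences were examined first, because E2F control is what these genes are best known to share. RefSeq promoter sequences (build GRCm38.p6, 250 bases before to 50 bases after the transcription start) were found for 37 of the 44 genes, with 46 promoters. The letters searched were TTTCCCGC, TTTGGCGC, TTTCGCGC and TTTGCCGC, the variants of the E2F consensus, on either strand and with overlapping matches counted. At least 1 match was present in 16 of the 37 genes (43.2%), against 426 of 8359 tested genes with a promoter entry (5.10%). Counted by promoter, 17 of the 46 held a match (36.96%), against 744 of all 32851 promoters (2.265%). The promoters of 4 MCM genes are shown, with matches in capitals, since their products sit side by side in 1 ring while only Mcm2 and Mcm5 were called. Each is written 5′ to 3′ on the strand of the gene. Mcm3 (chr1:20820263-20820562, minus strand), Mcm5 (chr8:75109259-75109558, plus strand) and Mcm6 (chr1:128359656-128359955, minus strand) held 2, 2 and 3 matches. That of Mcm2 (chr6:88898731-88899030, minus strand) held none.
Mcm2: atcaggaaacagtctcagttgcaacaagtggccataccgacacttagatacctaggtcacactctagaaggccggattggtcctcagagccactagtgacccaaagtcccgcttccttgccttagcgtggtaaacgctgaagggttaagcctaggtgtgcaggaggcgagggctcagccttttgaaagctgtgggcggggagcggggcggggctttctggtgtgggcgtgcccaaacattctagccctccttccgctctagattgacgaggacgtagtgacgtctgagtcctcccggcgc
Mcm3: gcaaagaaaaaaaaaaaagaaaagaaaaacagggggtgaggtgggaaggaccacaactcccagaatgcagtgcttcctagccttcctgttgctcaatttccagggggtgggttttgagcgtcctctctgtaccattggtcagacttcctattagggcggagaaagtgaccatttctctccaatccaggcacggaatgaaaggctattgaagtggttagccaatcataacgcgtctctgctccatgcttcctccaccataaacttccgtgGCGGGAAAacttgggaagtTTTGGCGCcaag
Mcm5: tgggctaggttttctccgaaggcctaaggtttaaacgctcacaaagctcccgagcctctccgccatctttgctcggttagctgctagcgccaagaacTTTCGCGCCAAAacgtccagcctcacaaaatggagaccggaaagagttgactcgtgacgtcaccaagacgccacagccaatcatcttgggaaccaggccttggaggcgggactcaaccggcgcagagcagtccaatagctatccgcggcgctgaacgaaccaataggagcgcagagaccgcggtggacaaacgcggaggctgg
Mcm6: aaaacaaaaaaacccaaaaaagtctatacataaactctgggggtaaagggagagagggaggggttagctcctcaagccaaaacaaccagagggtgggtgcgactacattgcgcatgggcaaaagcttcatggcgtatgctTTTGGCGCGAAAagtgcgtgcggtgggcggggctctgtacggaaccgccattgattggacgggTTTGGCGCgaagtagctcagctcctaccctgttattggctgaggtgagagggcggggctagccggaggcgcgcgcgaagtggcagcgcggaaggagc
A match is a run of letters and not a shown binding site, and no match says only that these letters are not in this window. In Mcm5 and in the upstream pair of Mcm6 the matches overlap on opposite strands, and those of Mcm3 lie after the start site. Among genes called in Myh9 KO, Mcm5 had a match, while Mcm2, Rpa3 and Orc4 had none. Gins1 and Gins2, also called, had no promoter entry. The median log2 fold change was 0.07 over the 15 tested genes with a match and 0.06 over the 21 without.

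Most replication transcripts differed little between Myh9 KO and WT cells. Of 43 tested members, 4 rose (Mcm2, Mcm5, Gins2 and Rpa3), 2 fell (Orc4 and Gins1) and 37 were not called. Over all tested genes 5.15% were called higher and 5.81% lower. The members' share of higher calls was above this background and their share of lower calls below it, without a test of either. Among the 4842 tested genes with a mean of at least 20, where most members lie, 375 were called higher and 371 lower. The members' median log2 fold change was 0.06, against 0.00 over all tested genes, and the members' single values ran from -0.99 to 0.72. For 32 of the 43 the whole 95% confidence interval of the fold lay within 1.5-fold in either direction. This was so for 48.4% of all tested genes, which were not matched for level. In 14 members all Myh9 KO values lay above all WT values and in 12 all lay below (26.2% and 27.3% of all tested genes), while in 17 the groups overlapped. Of the 4842 genes with a mean of at least 20, all Myh9 KO values lay above in 1620 and below in 1671. The member not tested was Pola1. Summed over all 44 genes, the values made up 0.545% and 0.564% of the WT totals and 0.604% and 0.608% of the knockout totals. The 9 genes on chromosomes 6 and 8 summed to 1713 and 1778 in WT against 2250 and 2314 in the knockout, while the sums of the other 35 overlapped (3690 and 3813, against 3739 and 3716).

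**Figure D1:**
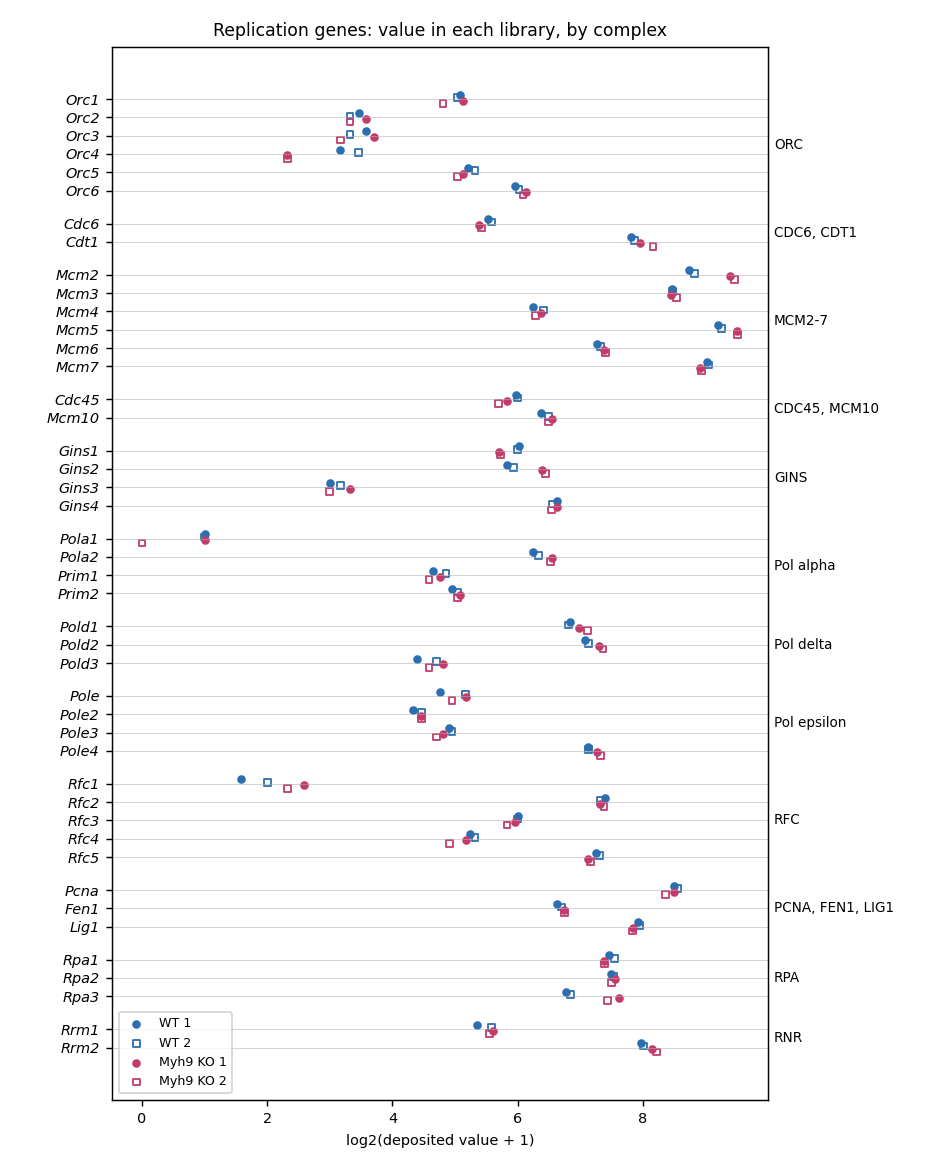
Value of each of the 44 replication genes in the 4 libraries, as log2(deposited value + 1) on the horizontal axis, with genes grouped by complex on the vertical axis; filled circles are replicate 1, open squares replicate 2, blue WT and red Myh9 KO, offset vertically within a gene for visibility. The red symbols of Mcm2, Mcm5, Gins2 and Rpa3 lie to the right of the blue ones, and those of Orc4 and Gins1 to the left.

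The members that rose all lie on chromosomes 6 and 8. Mcm2 and Rpa3 lie on chromosome 6 and Mcm5 and Gins2 on chromosome 8, and these chromosomes were shifted upward as a whole. The median log2 fold change was 0.45 over 555 tested genes of chromosome 6 and 0.21 over 646 of chromosome 8, whereas the other 18 nuclear chromosomes, Y left aside, had medians between -0.14 and 0.00. On chromosome 6, 30.5% of tested genes were called higher, and on chromosome 8, 12.5%. Of the replication genes, 9 of 44 (20.5%) lie on these chromosomes, compared with 10.7% of tested genes. All 4 rises were among these 9, whose median was 0.22. Among the 34 tested members on other chromosomes none was called higher, where 3.27% of genes were, 2 were called lower, where 6.25% were, and the median was 0.00. Of those 34, 11 had an unadjusted p under 0.05 in the limma fit, 4 positive and 7 negative, and the fit with random decimals alone called 4 higher and 2 lower. Such counts, here and below, stand without the share over all tested genes, so they show no excess among the genes counted.

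**Figure D2:**
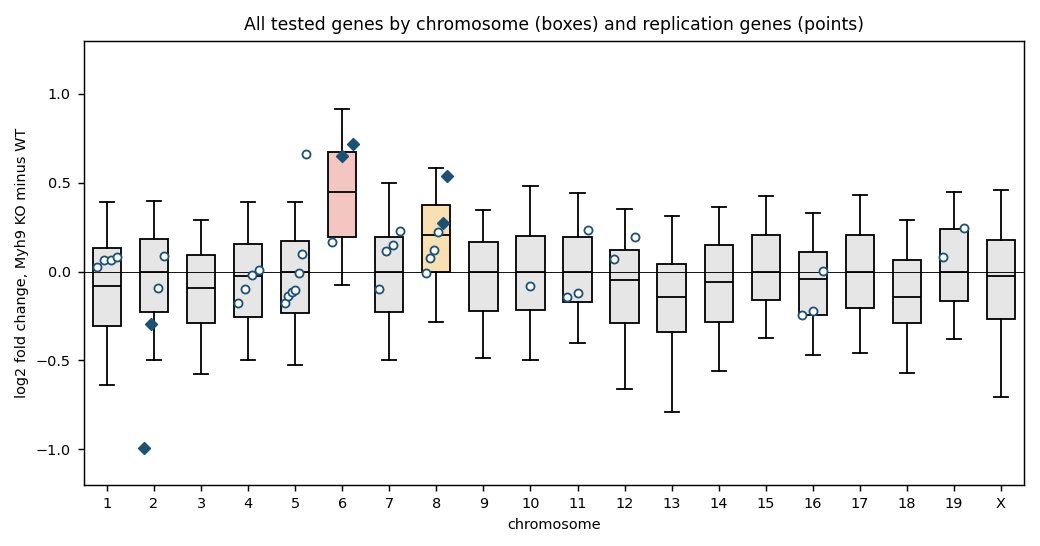
Log2 fold change (Myh9 KO minus WT, vertical axis) by chromosome; boxes show the quartiles and median of all tested genes with whiskers from the 10th to the 90th percentile, and points are replication genes, filled where called. The boxes of chromosomes 6 and 8 are shifted upward, with medians of 0.45 and 0.21, and hold the 4 members that rose.

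When the median of each chromosome was subtracted in every library, the calls of Mcm2, Mcm5 and Rpa3 were lost and that of Gins2 held. Mcm2 went from a log2 fold change of 0.65 to 0.20 (adjusted p = 0.0872), Mcm5 from 0.27 to 0.08 (0.228) and Rpa3 from 0.72 to 0.27 (0.0593). Gins2 went from 0.54 to 0.34 (adjusted p = 0.0289). Pole4, which had not been called at 0.16, was called lower at -0.28 against the rest of chromosome 6 (adjusted p = 0.0456), and Pold2 was called higher at 0.22 (0.0444).

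**Figure D3:**
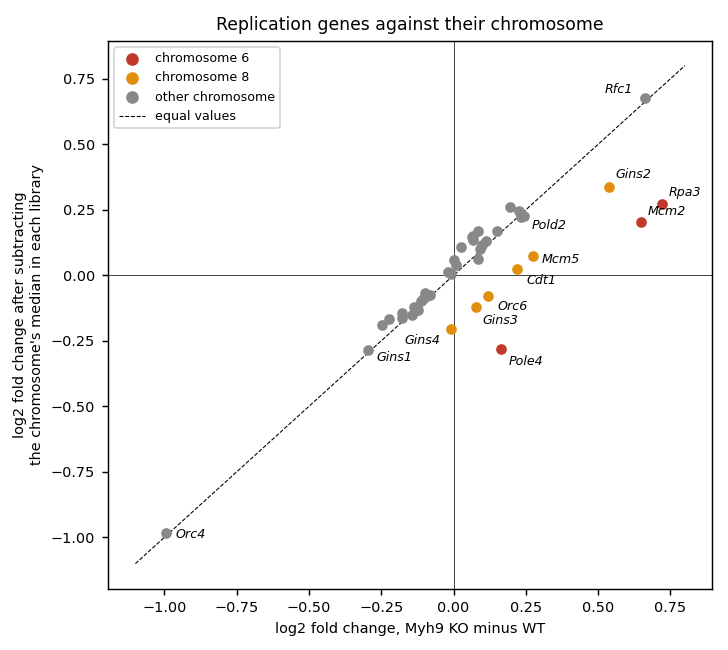
Log2 fold change of each tested replication gene (horizontal axis) against the same after its chromosome's median was subtracted in every library (vertical axis); the dashed line marks equal values. Genes of chromosomes 6 (red) and 8 (orange) drop below the line, Mcm2 from 0.65 to 0.20 and Pole4 from 0.16 to -0.28, while the others stay close to it.

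Among the 6 origin recognition genes, Orc4 was the only one called. Orc4, an ATPase subunit of the complex (ENSMUSG00000026761, mm10 chromosome 2, 48902824 to 48950277), had values of 8 and 10 in WT against 4 and 4 in the knockout. Both Myh9 KO values were below both WT values, a log2 fold change of -0.99 (SE 0.13, adjusted p = 0.0491). The Orc4 transcript has a GC content of 36.8%. The 2248 tested genes of lowest GC content (31.0% to 45.0%) had a median log2 fold change of -0.15, and of -0.14 for Myh9 KO 2 minus Myh9 KO 1. After removal of trends on GC and length Orc4 was still called, at -0.75 (adjusted p = 0.0297). Orc1, the largest subunit, had values of 33 and 32 in WT against 34 and 27 in the knockout. Where values are joined by "then", those of WT come first. Orc2 (10 and 9, then 11 and 9) and Orc3 (11 and 9, then 12 and 8) overlapped between groups. Orc5 was at 36 and 39 in WT against 34 and 32 in the knockout, and was not called (adjusted p = 0.193). Orc6, on chromosome 8, was at 61 and 64, then 69 and 67, and its log2 fold change of 0.12 was below the median of that chromosome.

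Neither licensing loader was called by limma or with random decimals, and 1 of them had an unadjusted p under 0.05. Cdc6, the ATPase that joins ORC to receive the helicase, had values of 45 and 47 in WT against 41 and 42 in the knockout, a fold of 0.904 with a 95% interval from 0.834 to 0.981 (adjusted p = 0.232). Cdt1, which carries the helicase to the origin and is destroyed once S phase begins, had values of 224 and 233 in WT against 248 and 286 in the knockout. This difference, at a log2 fold change of 0.22 (SE 0.09, adjusted p = 0.245), was close to the median of its chromosome 8.

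The helicase core was uneven. Mcm2 (ENSMUSG00000002870, mm10 chromosome 6, 88883474 to 88898780) had values of 427 and 453 in WT against 670 and 710 in the knockout. It rose by a log2 fold change of 0.65 (SE 0.05, adjusted p = 0.0254), a fold of 1.57 with a 95% interval from 1.38 to 1.78. Mcm5 (ENSMUSG00000005410, mm10 chromosome 8, 75109569 to 75128439), which sits beside MCM2 at the gate of the ring, rose from 592 and 613 to 724 and 733, by 0.27 (SE 0.02, adjusted p = 0.0283). The groups did not overlap in either gene. The other 4 ring subunits, none of them on chromosome 6 or 8, were not called. Mcm3 was at 353 and 354, then 350 and 370, and its fold interval ran from 0.933 to 1.11. Mcm4 was at 75 and 84, then 82 and 77, with overlapping groups and an interval of 0.822 to 1.22. Mcm6 was at 154 and 160, then 165 and 168, with an interval of 0.991 to 1.14. Mcm7 was lower in both Myh9 KO libraries, at 481 and 489 against 520 and 529, with an interval of 0.888 to 0.964 (adjusted p = 0.0948). Its value is uncertain in that 26.0% of all 50-base words in the longest Mcm7 transcript are shared with other genes.

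The activators of the helicase showed opposite movements within GINS, a complex of 4 different subunits. Gins2 (ENSMUSG00000031821, mm10 chromosome 8, 120578633 to 120589304) rose from 56 and 60 to 83 and 86, by 0.54 (SE 0.05, adjusted p = 0.0299). Its exons overlap those of Gse1 on the opposite strand over 67.3% of their length, and with no strand-marking step in the library protocol the reads of both genes cannot be told apart. Gse1 itself was at 17 and 21 in WT against 26 and 28 in the knockout (log2 fold change 0.49, adjusted p = 0.141). Gins1 (ENSMUSG00000027454, mm10 chromosome 2, 150905400 to 150931280) fell from 64 and 63 to 51 and 52, by -0.30 on the log2 scale (SE 0.02, adjusted p = 0.0186). That call was lost after removal of trends on GC and length (-0.19, adjusted p = 0.0905), and with values centred on each library's median (-0.25, adjusted p = 0.0632). Gins3 (7 and 8, then 9 and 7) and Gins4 (98 and 93, then 98 and 92), both on chromosome 8, overlapped between groups, and Gins4 had a fold interval of 0.877 to 1.13. Cdc45, the third part of the active helicase, was at 62 and 63 in WT against 56 and 51 in the knockout (-0.22 ± 0.06 SE on the log2 scale, adjusted p = 0.137). Mcm10, which helps the helicase to open the origin, was at 82 and 89, then 93 and 89.

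**Figure D4:**
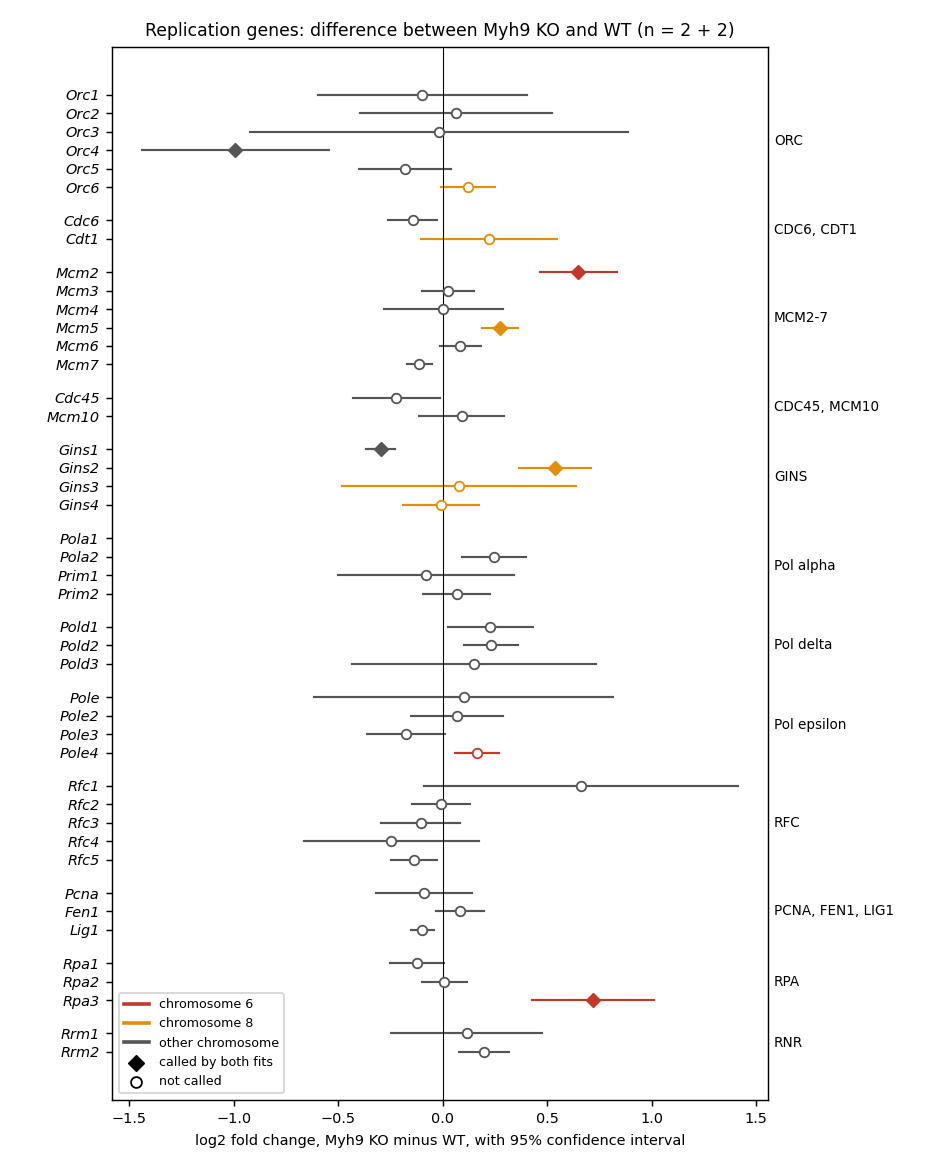
Log2 fold change of the 43 tested replication genes (horizontal axis, Myh9 KO minus WT) with 95% confidence intervals, by complex; filled diamonds are genes called by both fits, and red and orange mark chromosomes 6 and 8. Diamonds at the right are Mcm2 (0.65), Mcm5 (0.27), Gins2 (0.54) and Rpa3 (0.72), and those at the left Orc4 (-0.99) and Gins1 (-0.30).

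None of the replicative polymerase genes among the members was called by both fits. Of the 10 tested, limma called none, the fit with random decimals called 3, and 4 had an unadjusted p under 0.05, all positive. In polymerase alpha-primase, the catalytic subunit gene Pola1 was at 1 and 1 in WT against 1 and 0 in the knockout, below the filter. Dividing cells need this enzyme, and so low a value is no measure of its level. Its partner Pola2 was at 75 and 80 in WT against 93 and 91 in the knockout (0.25 ± 0.04 SE on the log2 scale, adjusted p = 0.0778). The primase genes Prim1 (24 and 28, then 26 and 23) and Prim2 (30 and 32, then 33 and 32) overlapped between groups or met.

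The 3 members that encode polymerase delta, the lagging-strand enzyme, had positive log2 fold changes without reaching a call. Pold1, the catalytic subunit, was at 113 and 112 in WT against 126 and 138 in the knockout (0.23, SE 0.06, adjusted p = 0.128). Pold2, its accessory subunit, was at 134 and 139, then 157 and 164 (0.23, SE 0.04, adjusted p = 0.0666), and Pold3, which links the enzyme to PCNA, at 20 and 25, then 27 and 23. With random decimals alone Pold1, Pold2, Pola2 and Rrm2 were called higher as well (0.0361, 0.0208, 0.0297 and 0.0253 as adjusted p). Without Myh9 KO 1, the log2 fold change of Pold1 was 0.29. The transcripts of Pold1 and Pold2 have GC contents of 61.0% and 58.8%. The 2241 tested genes of highest GC content (56.1% to 76.3%) had a median log2 fold change of 0.11, and of 0.09 for Myh9 KO 2 minus Myh9 KO 1. After removal of trends on GC and length, Pold1 was at 0.12, Pold2 at 0.14 and Pold3 at 0.17, and none was called. The small delta subunit gene Pold4, no member and named after its values were seen, was at 6 and 8, then 10 and 12 (0.59, SE 0.19, adjusted p = 0.175; 0.0341 with random decimals). Of the 4 genes of polymerase epsilon, the leading-strand enzyme, 3 had positive log2 fold changes and 1 a negative one, none was called, and a difference from delta was not tested. Its catalytic subunit gene Pole had values of 26 and 35 in WT against 35 and 30 in the knockout (log2 fold change 0.10), and Pole2 values of 19 and 21, then 21 and 21 (0.07). The histone-fold subunit genes differed in sign, with Pole3 at 29 and 30, then 27 and 25 (log2 fold change -0.18), and Pole4, on chromosome 6, at 139 and 140, then 153 and 160 (0.16, SE 0.03, adjusted p = 0.0804).

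No clamp or clamp loader gene was called. Pcna, the sliding clamp, had values of 360 and 375 in WT against 362 and 329 in the knockout, with overlapping groups and a fold interval of 0.801 to 1.10. Other genes share 31.8% of the 50-base words in the Pcna transcript. Of the 5 clamp loader genes 4 had a negative log2 fold change, and none was called by limma or with random decimals (1 had an unadjusted p under 0.05). Rfc2 was at 167 and 160, then 159 and 166, and its interval ran from 0.904 to 1.09. Rfc3 (63 and 63, then 61 and 56), Rfc4 (37 and 39, then 35 and 29) and Rfc5 (152 and 158, then 139 and 143) had all Myh9 KO values below all WT values, with adjusted p of 0.331, 0.297 and 0.116. Rfc1, the large subunit, had values of only 2 and 3 in WT against 5 and 4 in the knockout, so its log2 fold change of 0.66 (SE 0.22, adjusted p = 0.175) rests on steps of 1 to 3 units.

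No gene of lagging-strand joining or ribonucleotide reductase was called by both fits, and with random decimals alone Rrm2 was. Fen1, the flap endonuclease, was at 98 and 103 in WT against 106 and 107 in the knockout, and Lig1, the ligase that seals the fragments, at 241 and 246, then 228 and 227. Their fold intervals ran from 0.977 to 1.15 and from 0.899 to 0.971, with adjusted p of 0.366 and 0.188. Rrm1, the large subunit of ribonucleotide reductase, had values of 40 and 47, then 48 and 46, with overlapping groups. Rrm2, the small subunit whose level follows S phase, was at 250 and 257 in WT against 284 and 297 in the knockout (0.20 ± 0.03 SE on the log2 scale, adjusted p = 0.075).

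Within RPA, a trimer of different subunits, only the smallest subunit gene was called. Rpa3 (ENSMUSG00000012483, mm10 chromosome 6, 8255936 to 8259173) rose from 109 and 114 to 196 and 173, by 0.72 (SE 0.08, adjusted p = 0.0421), a fold of 1.65 with a 95% interval from 1.35 to 2.02. Its transcript has a GC content of 34.2%, and after removal of trends on GC and length the log2 fold change was 1.09. Rpa1, the large DNA-binding subunit, was at 176 and 186, then 165 and 167 (fold interval 0.840 to 1.00), and Rpa2, which is phosphorylated under replication stress, at 180 and 185, then 187 and 180 (0.933 to 1.08).

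Leaving out any 1 library ended each of these calls, except that of Orc4 without WT 1. In these fits Mcm2, Mcm5, Gins2, Rpa3 and Gins1 had adjusted p from 0.0667 to 0.222, and Orc4 an adjusted p of 0.0172 without WT 1 and 0.0688 to 0.231 without the others. Their fold changes kept their direction, between 0.25 and 0.81 for the genes that rose and between -1.14 and -0.28 for those that fell. With 3 libraries the lone sample is assumed to vary like the other group, and over all genes 140 to 345 were called higher and 198 to 417 lower, against 578 and 652.

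Wider replication genes, from 8 lists with 153 entries of which 135 were tested, gave 8 called higher (5.93%) and 5 lower (3.70%), near the shares over all tested genes (5.15% and 5.81%), with a median of -0.01. The 11 of these calls named by rule were all lost without WT 1 and also without WT 2. Without Myh9 KO 1, Ccnd3, E2f4, Nme2 and Pclaf were still called, and without Myh9 KO 2, Ccnd3, E2f4 and Pclaf. Of 12 licensing and firing regulators, 11 had a negative log2 fold change (median -0.21), but only Lrwd1, an ORC-associated protein gene, was called, falling from 90 and 92 to 73 and 74 (-0.30, SE 0.02, adjusted p = 0.018). Of 20 tested genes of fork protection, accessory functions and Okazaki fragment processing 2 rose. Pclaf, whose product binds PCNA, went from 15 and 15 to 39 and 32, by 1.18 (SE 0.12, adjusted p = 0.0358). Rnaseh2a, the catalytic subunit of RNase H2, went from 221 and 223 to 263 and 261 and lies on chromosome 8, where it was not called once that chromosome's median was subtracted (0.04, adjusted p = 0.539). Among 20 tested nucleotide supply genes Nme2 fell from 980 and 975 to 881 and 862, although 54.5% of its 50-base words occur elsewhere.

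Of 13 tested genes of replication-coupled chromatin assembly, Tonsl, which recognises new histones behind the fork, rose from 132 and 137 to 165 and 160 (0.27, adjusted p = 0.0425) and Rbbp4, a histone chaperone subunit, fell from 281 and 279 to 254 and 248 (-0.16, adjusted p = 0.0462). The calls of Tonsl and Rbbp4 were lost after removal of GC and length trends, and those of Rbbp4 and Nme2 with chromosome medians subtracted and with centring on library medians. Among 15 tested checkpoint genes Fancd2, on chromosome 6, rose from 10 and 10 to 14 and 14 (0.45, adjusted p = 0.0347), close to the median of its chromosome. Of 11 tested translesion and repair polymerase genes Poll rose from 17 and 16 to 23 and 24. The S-phase checkpoint kinase gene Atr and the proliferation marker Mki67, named after their values were seen, were listed at 0 in all 4 libraries together with 10 other list genes. Dividing cells use Atr and Mki67, so a 0 among these values does not by itself show that a gene is silent.

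Of 25 tested E2F factor and G1/S cyclin genes 3 rose, 2 fell and 20 were not called, against 5.15% higher and 5.81% lower over all tested genes. E2f4, a mostly repressive E2F factor on chromosome 8, rose from 186 and 186 to 247 and 255, a log2 fold change of 0.43 (SE 0.02, adjusted p = 0.012). It remained called after its chromosome's median was subtracted (0.23, adjusted p = 0.039). Ccne1, the gene of cyclin E1, which drives entry into S phase, rose from 224 and 229 to 267 and 260 (0.22, adjusted p = 0.0379), and Ccnd3, the gene of cyclin D3, fell from 396 and 397 to 239 and 255 (-0.68, SE 0.04, adjusted p = 0.0164). The other two calls, named after their values were seen, were Tfdp1, the E2F partner gene on chromosome 8 (133 and 139 to 173 and 166), and Cdk6, the kinase partner of D cyclins (22 and 23 to 16 and 17). Tfdp1 and Fancd2 were not called once chromosome medians were subtracted. Of 19 tested genes of G2 and mitosis none was called by both fits, and the median was 0.00. Limma alone called 1, the fit with random decimals alone 3, and 7 had an unadjusted p under 0.05. The one with the smallest adjusted p was Foxm1, on chromosome 6, at 38 and 41 in WT against 57 and 64 in the knockout (0.60, SE 0.09, adjusted p = 0.0577).

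**Figure D5:**
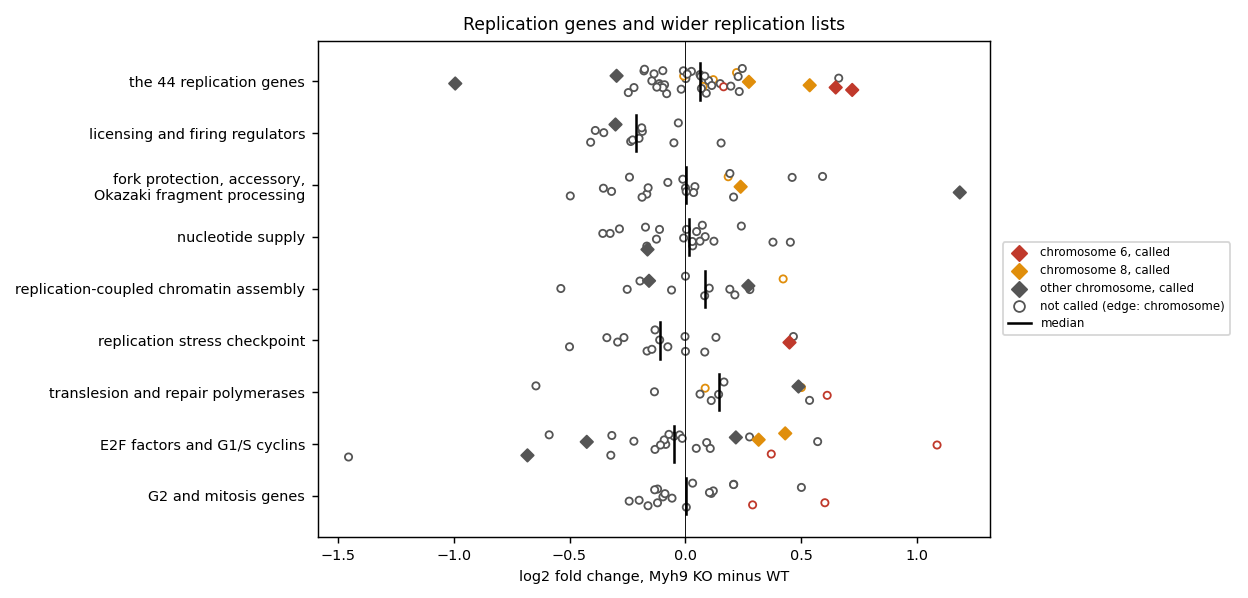
Log2 fold change (Myh9 KO minus WT, horizontal axis) of the tested replication genes and of 8 wider lists (rows; vertical scatter within a row has no meaning); diamonds are called genes, open circles genes not called, red and orange mark chromosomes 6 and 8, and black bars are medians. Row medians lie between -0.21, for licensing and firing regulators, and 0.14, for translesion and repair polymerases.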

How the data were processed

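Total RNA was extracted with TRIzol, mRNA enriched on oligo-dT beads and cDNA made from random primers, per the labels' protocols. Bowtie2 2.2.5, RSEM 1.3.0 and bcl2fastq are named without a role, with the builds mm10 and hg38, per the submitters' processing notes. The deposited values, treated as a score, were whole numbers with nearly equal totals. Whether they are per transcript length is not given in the sources used here. Levels of different genes were therefore compared only as parts of sums, which weight each gene by its value in this unit. Of 50600 identifiers 50376 were found in GENCODE vM21 (mm10), 92.9% with the same coordinates.

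The 11231 genes averaging 1 or more over the libraries were fitted in R 4.3.3 with limma 3.58.1 (trend option, no block) after log2(value + 1), and again with a uniform number between 0 and 1 added to each value (median adjusted p over 25 draws). A call needs both fits because equal whole numbers leave no spread. The test was checked on simulated data. GC content, length and 50-base words are those of the longest transcript. Named genes are the 44 members, Myh9, and up to 3 called genes of each wider list (the smallest adjusted p where none was called). Members, lists, complexes and tests were chosen with earlier results of these data known. Alternatives were other pseudocounts, filters and scalings, removal of GC and length trends, subtraction of chromosome medians, a replicate block and leaving out each library.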

Additional observations from a re-analysis of the deposited data

How the results depend on the processing

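With 2 libraries per group the precision is low, depth is unknown, and whole-number values leave genes with low values in coarse steps. Of the main 4 members called higher and 2 lower, the counts were 7 and 1 with values centred on each library's median (where all genes gave 1117 higher and 811 lower, against 578 and 652; Pola2, Pold2 and Rrm2 added, Gins1 lost), 8 and 4 after removal of GC and length trends (Orc6, Pola2, Pole4 and Rrm2 added as higher, Mcm7, Rfc5 and Lig1 as lower, Gins1 lost), 2 and 3 with chromosome medians subtracted, 0 and 2 without chromosomes 6 and 8, 8 and 2 with random decimals alone, and 4 and 1 with no filter (Orc4 lost). Leaving out 1 library gave 0 to 1 higher and 0 to 1 lower, and 140 to 345 higher and 198 to 417 lower over all genes. The members' median of 0.06 became 0.1093, 0.0928 and 0.0222 with centring, GC and chromosome correction, -0.0036 without chromosomes 6 and 8, and -0.0082 to 0.0823 with 1 library left out. Member counts with GC and length trends removed, chromosome medians subtracted, random decimals alone or no filter stand here without those over all genes. Whether they differ from the change in calls over all genes was not tested. Pole4 turned from 0.16, not called, to -0.28 and called with chromosome medians subtracted. In these alternatives the cause was not tested, apart from fewer genes counted without chromosomes 6 and 8 and fewer libraries with 1 left out. Deviations of WT 1 and Myh9 KO 1 correlated at 0.04, and whether the replicate numbers pair the libraries was not tested further. A replicate block gave 0 members higher and 0 lower, and 10 and 44 over all genes, and ended the calls of Myh9 and of the 11 wider-list genes too. The other pseudocount, quantile normalisation, the whole-number fit alone and a minimum mean of 5 kept both counts within 1.5 times. Of the 11 wider-list calls, Nme2, Poll and Rbbp4 were lost with quantile normalisation and Rbbp4 with no filter. A count-based test was not run, since the values are not counts.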
